A study of Mus musculus with 3 samples.

Results

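The S100 genes encode small calcium-binding proteins, and 10 of them were described here out of 23282 gene entries measured: S100a1, S100a3, S100a4, S100a6, S100a8, S100a9, S100a10, S100a11, S100a13 and S100b. They were taken by symbol, and all 10 were found as a single entry each. The RNA came from marrow cells of wild type male C57BL/6 mice, a common inbred strain, after lysis of red blood cells. The mice were 6 weeks old and received sterile water, the vehicle, by gavage for 28 days, with harvest on day 29. Only this vehicle group is described, with 3 libraries, and the study's other arm, Asari Radix et Rhizoma, a herbal medicine, was not analysed here. The labels do not say whether the libraries came from separate mice, so their spread may be technical, and marrow was not sorted into cell types. In such bulk RNA, fewer cells of a type and less RNA per cell cannot be told apart.

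S100 proteins carry a pair of EF-hand loops, which bind calcium, and most of them act as dimers that take hold of a target protein when calcium rises. S100a8 and S100a9 pair with each other as calprotectin, an abundant protein of the neutrophil cytosol that binds zinc and manganese and acts as an alarm signal through Toll-like receptor 4 once released. S100a10 binds annexin A2 and has lost the ability to bind calcium, S100a11 binds annexin A1, S100a6 binds annexin A11 and calcyclin-binding protein, and S100a4 binds non-muscle myosin heavy chain. S100a13 takes part in the release of fibroblast growth factor 1, S100a1 is best known from heart and skeletal muscle, S100b from glia, and S100a3 from hair follicles.

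The libraries held 9168435, 8104828 and 9137125 reads in replicates 1, 2 and 3. Levels are given in CPM, reads per 1000000 reads of the library. Priming by oligo(dT) yields roughly 1 fragment for each mRNA whatever its length, and levels of different genes were therefore compared with no length correction. Taken as 3 reads, the limit that a count of 0 allows was 0.327, 0.370 and 0.328 CPM in the 3 libraries. Defining markers of marrow cells were present, with the neutrophil granule gene Ngp at 7226 ± 1137 CPM (SD, n = 3) and the B cell receptor gene Cd79b at 132 ± 10.5 CPM. Although red cells had been lysed, 10 listed erythroid genes summed to 7.58%, 11.3% and 11.3% of reads. Globin entries alone, some of them not on that list, held 10.1%, 15.1% and 15.0% in replicates 1, 2 and 3. On library totals the median gene of replicate 1 lay 0.10 log2 units above its mean over the libraries. Trimmed-mean (TMM) scaling, which centres most genes by design, put it at 0.00, and the cause of the shift was not tested.

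Of the 10 genes, 9 lie on mouse chromosome 3 and S100b lies on chromosome 10 (GRCm38, 76253853 to 76261159). S100a8 (90668978 to 90670035, plus strand) and S100a9 (90692632 to 90695721, minus strand) point toward each other, with 22596 bases between them. S100a1 and S100a13 point away from each other, with 42 bases between their starts in GENCODE. S100a11 (93520488 to 93526287) and S100a10 (93555080 to 93564643) lie 2824766 bases beyond S100a9. The upstream sequences that follow are shown for S100a8 and S100a9, the abundant pair, and for S100a6 and S100a11, whose levels moved most like that of S100a8. They are the 250 bases before the start site in RefSeq (GRCm38.p6), written 5′ to 3′ on the strand of the gene, and the capitals mark the motifs named after them. RefSeq entries were found for 9 of the 10 genes, and S100a10 was not among them.
S100a8, chr3:90668821-90669070, plus strand: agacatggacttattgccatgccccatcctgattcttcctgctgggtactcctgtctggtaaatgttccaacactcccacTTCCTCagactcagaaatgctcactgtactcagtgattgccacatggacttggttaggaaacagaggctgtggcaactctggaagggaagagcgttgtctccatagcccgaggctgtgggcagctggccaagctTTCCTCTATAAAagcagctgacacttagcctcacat
S100a9, chr3:90695722-90695971, minus strand: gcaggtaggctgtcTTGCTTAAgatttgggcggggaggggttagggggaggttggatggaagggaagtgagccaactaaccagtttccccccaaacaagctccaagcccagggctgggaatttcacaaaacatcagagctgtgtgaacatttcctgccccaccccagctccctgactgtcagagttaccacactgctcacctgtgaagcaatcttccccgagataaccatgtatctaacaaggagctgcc
S100a6, chr3:90612644-90612893, plus strand: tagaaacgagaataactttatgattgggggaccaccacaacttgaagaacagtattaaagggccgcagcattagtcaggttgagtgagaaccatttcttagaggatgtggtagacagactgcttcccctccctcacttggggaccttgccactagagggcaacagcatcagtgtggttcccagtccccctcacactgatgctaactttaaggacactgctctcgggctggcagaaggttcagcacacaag
S100a11, chr3:93520246-93520495, plus strand: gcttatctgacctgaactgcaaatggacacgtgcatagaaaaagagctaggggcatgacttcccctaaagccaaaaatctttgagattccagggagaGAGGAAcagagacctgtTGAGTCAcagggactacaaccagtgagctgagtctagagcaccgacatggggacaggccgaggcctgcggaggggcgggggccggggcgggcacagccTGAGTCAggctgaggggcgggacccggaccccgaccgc

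The motifs searched, on both strands, were TTGCNNAA (a C/EBP core), GAGGAA (PU.1), TGANTCA (AP-1) and TATAAA, the letters of a TATA box, in the 300 bases that RefSeq gives around each start, 50 of them after it. S100a8 held TATAAA at -30, directly after but not overlapping a TTCCTC at -36, the reverse of GAGGAA, and a second TTCCTC at -170. S100a9 held TTGCTTAA at -236, and its TATAAA began at base 1 after the start, just past the stretch shown. S100a11 held TGAGTCA at -136 and -38 and GAGGAA at -153, and no motif was matched for S100a6. S100a4, not shown, held TATAAA at -31 and TTCCTC at base 20 after the start. S100a3, also not shown and with 5 reads in total, held TATAAA at -52 and TTCCTC at -189 and -16 in 1 of its windows. No motif was matched for S100a1, S100a13 or S100b. Among all 32851 such windows, 10.8% held the C/EBP letters, 28.3% the PU.1 letters, 7.81% the AP-1 letters and 13.6% the TATA letters. These matches describe letters only, and no binding was measured.

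S100a9 and S100a8 stood far above the other family members in each library. S100a9 had 362786, 274311 and 365658 reads in replicates 1, 2 and 3, or 39569, 33845 and 40019 CPM. It was the third most abundant entry of all in each library, and replicate 2 was the lowest. S100a8 had 273681, 164724 and 298221 reads, or 29850, 20324 and 32638 CPM, which placed it at rank 4, 6 and 4 of all entries. Its drop in replicate 2 was deeper than that of S100a9, and its libraries spanned a 1.61-fold range against 1.18-fold for S100a9. Intervals were exact Clopper-Pearson ones at 95% and cover counting error only, as do the limits for a count of 0. For S100a8 in replicate 2 the interval ran from 20227 to 20422 CPM, far from the values of the other two libraries.

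**Figure D1:**
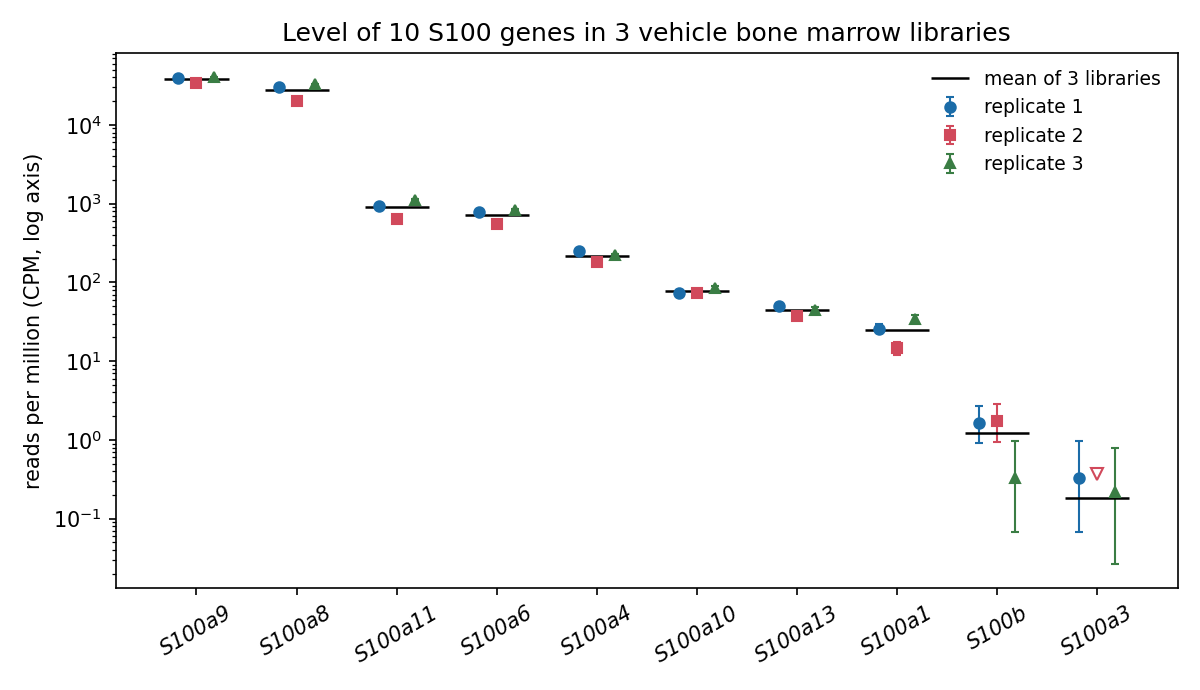
CPM (log axis) of each S100 gene in the 3 vehicle libraries, with bars for exact 95% counting intervals and a black line at the mean. The open triangle is the 3-read limit, 0.370 CPM, of S100a3 in replicate 2, which had 0 reads, and S100a9 and S100a8 sit at 37811 and 27604 CPM on average, above S100a11 at 895 CPM.

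The other 8 members summed to 0.212%, 0.149% and 0.232% of reads in replicates 1, 2 and 3, while the whole family held 7.15%, 5.57% and 7.5%. S100a8 and S100a9 therefore made up 97.0%, 97.3% and 96.9% of the family's reads. Within a library, the reads of the pair exceeded those of the other 8 members 32.7-fold, 36.3-fold and 31.3-fold, a mean log2 ratio of 5.06 ± 0.11 (SD, n = 3). The pair was higher in 3 of 3 libraries. A two-sided exact permutation test by sign flips gave p = 0.25, which with 3 libraries is its lower limit. With medians of log2(CPM + 1) in place of sums the difference was 9.08.

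The middle of the family consisted of S100a11, S100a6 and S100a4. S100a11 had 938, 640 and 1108 CPM in replicates 1, 2 and 3. S100a6 had 784, 546 and 831 CPM. Their ranges overlapped, although S100a11 was the higher of the pair in 3 of 3 libraries, by 1.2-fold, 1.17-fold and 1.33-fold. S100a4 had 248, 182 and 222 CPM, below the lowest S100a6 value in each library. All 3 genes were lowest in replicate 2.

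S100a10, S100a13 and S100a1 formed a lower tier. S100a10 had 73.4, 72.9 and 83.9 CPM, nearly level in replicates 1 and 2. S100a13 had 50.4, 37.5 and 44.3 CPM, and S100a1 had 25.8, 14.6 and 34.4 CPM. Neither range overlapped that of its neighbour, and S100a1 spanned 2.36-fold between libraries. S100b was near the floor with 15, 14 and 3 reads (1.64, 1.73 and 0.328 CPM). S100a3 had 3, 0 and 2 reads, so it was at or near the limit that a count of 0 allows, and its order against S100b in replicate 3 rests on 2 against 3 reads.

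The order by mean level was thus S100a9, S100a8, S100a11, S100a6, S100a4, S100a10, S100a13, S100a1, S100b and S100a3, and each library gave this order. The widest step of this order between genes with at least 30 reads was from S100a8 to S100a11, at 31.8-fold, 31.8-fold and 29.5-fold in replicates 1, 2 and 3 (mean log2 ratio 4.95 ± 0.06, SD, n = 3). The step from S100a1 to S100b had a mean of 24.1-fold but ran from 8.43-fold to 105-fold; S100b had 3 reads in replicate 3. The remaining steps above S100b had means between 1.23-fold and 3.29-fold. Overlapping ranges were found only for S100a11 and S100a6.

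**Figure D2:**
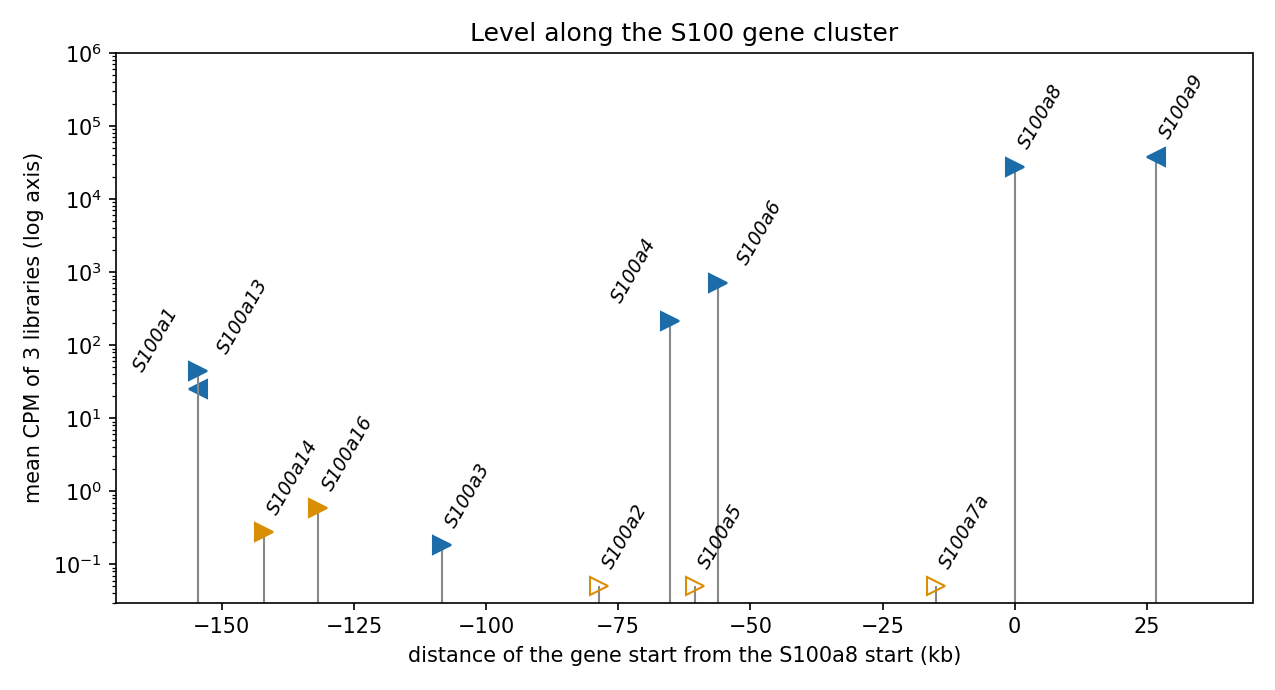
Mean CPM of the 3 libraries (log axis) against the distance of each gene start from the S100a8 start in kb, for the entries of the chromosome 3 cluster. Arrowheads point in the direction of transcription, blue marks the genes described, orange marks other S100 entries, and open symbols mark entries with 0 reads, drawn at the bottom. S100a8 and S100a9 stand at one end, and S100a7a, S100a5 and S100a2 between or beside expressed genes had no reads.

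Neighbours in the cluster differed widely in level. S100a7a, the nearest S100 entry to S100a8, had 0 reads in 3 of 3 libraries, as did S100a5 and S100a2, which allows up to 0.114 CPM over the 3 libraries together. S100a5 lies between S100a4 and S100a6, at 217 and 720 CPM on average. S100a14 had 3, 4 and 0 reads in replicates 1, 2 and 3 and S100a16 1, 8 and 6 reads. S100g, a calcium-binding protein of the gut and kidney encoded on the X chromosome, had 13, 27 and 14 reads, and S100z had 1 read in all. S100pbp, which encodes a binding partner of S100 proteins and is no family member, had 1, 5 and 2 reads. S100a2 lies within the span of S100a3 (90560578 to 90602702) on the same strand, and the annotated Gm42674, which was not an entry of the files, overlaps S100a4, so reads in shared stretches are of uncertain origin.

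The S100a9 to S100a8 ratio is the measure of the calprotectin pair that no scaling of libraries can move. It was 1.33, 1.67 and 1.23 in replicates 1, 2 and 3, with counting intervals of 1.32 to 1.33, 1.66 to 1.68 and 1.22 to 1.23 that did not overlap. The mean log2 ratio was 0.48 ± 0.23 (SD, n = 3), above 0 in 3 of 3 libraries (two-sided exact sign-flip permutation p = 0.25). Replicate 2 had the highest ratio, and S100a8 lay further below its mean there than S100a9 did. Without replicate 2 the mean was 0.35 and the SD 0.08. S100a8 instead kept a nearly fixed proportion to S100a6, at 38.1-fold, 37.3-fold and 39.3-fold, a 1.05-fold range, and to S100a11, a 1.08-fold range, while its own level spanned 1.61-fold. For S100a9 the same ratios spanned 1.29-fold and 1.46-fold. With S100a4, S100a10 and S100a13 it was the other way round: the ratios of S100a9 spanned 1.16-fold, 1.16-fold and 1.15-fold, and those of S100a8 1.32-fold, 1.46-fold and 1.36-fold. S100a6 and S100a11 were singled out after these values were seen.

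**Figure D3:**
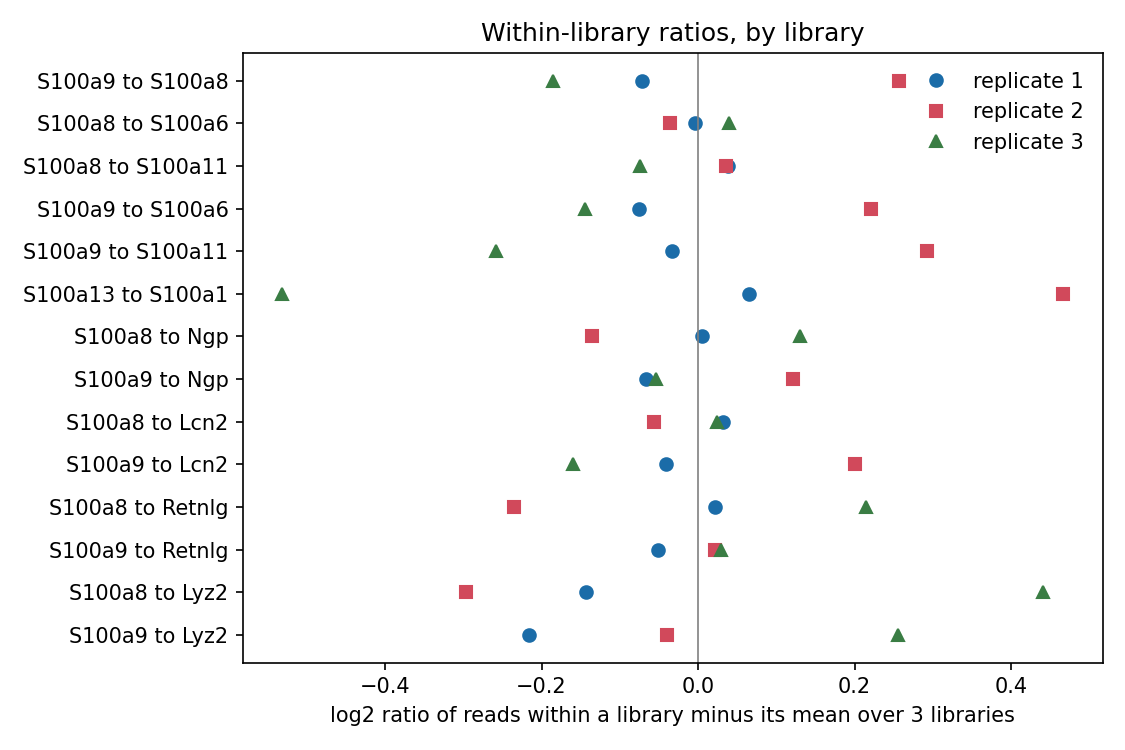
Each point is the log2 ratio of reads of a pair of genes in 1 library minus the mean of that ratio over the 3 libraries, so 0 marks the mean. S100a9 to S100a8 is highest in replicate 2, S100a8 to S100a6 stays within a 1.05-fold range, and S100a13 to S100a1 spans 1.997-fold.

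Each of the 9 members with at least 30 reads over the 3 libraries differed between libraries beyond counting noise. The test was an exact binomial test of each library against the others with Benjamini-Hochberg adjustment over all 11833 genes tested. It called 56.5% of those genes, and 76.2% of the 3514 genes with at least 1000 reads, so the count of 9 was read as no result about the family. S100a3, with 5 reads in total, was not tested. The adjusted p of S100a9 and S100a8 was 0 at the precision of the computation. It was 1.31e-209 for S100a11, 1.87e-120 for S100a6, 7.24e-16 for S100a4, 1.28e-12 for S100a1, 0.00355 for S100a13, 0.0149 for S100b and 0.0178 for S100a10. These values depend on read number and test counting noise only.

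The spread differed widely between members. The coefficient of variation (CV, SD over mean) was 39.9% for S100a1, 26.5% for S100a11, 23.4% for S100a8 and 21.3% for S100a6. S100a4 had 15.3%, S100a13 14.6%, S100a9 9.10% and S100a10 8.12%. The median over the 9 members was 21.3%, beside 17.1% over all tested genes and 11.04% over genes with at least 1000 reads. This order rested on replicate 2: without it the medians were 9.06% over the members and 14.4% over all tested genes, against 29.3% and 13.6% without replicate 1 and 21.6% and 14.3% without replicate 3. Counting noise alone would give a CV of 0.202% for S100a8, 1.12% for S100a11, 6.70% for S100a1 and 30.6% for S100b, whose CV was 63.6%. Of all tested genes, 33.0% had a larger CV than S100a8 and 80.0% a larger one than S100a9.

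**Figure D4:**
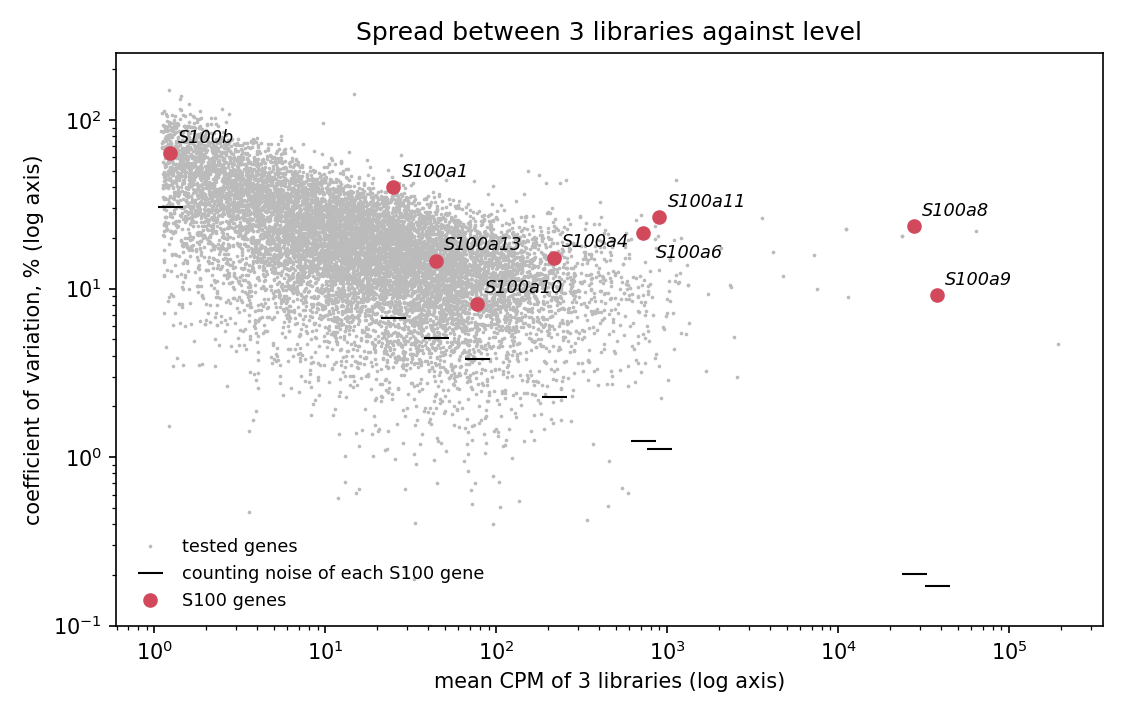
CV between the 3 libraries in percent (log axis) against mean CPM (log axis) for all 11833 tested genes (grey) and the 9 tested S100 genes (red), with black bars at the CV that counting noise alone would give each of them. S100a8 stands at 23.4% and S100a9 at 9.10%, both far above their counting noise, while S100b, at 63.6% against 30.6%, and S100a10, at 8.12% against 3.84%, lie nearest to theirs.

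Of the 9 tested members, 8 were called and lowest in replicate 2, beside 21.4% of all tested genes. S100b was called and lowest in replicate 3, beside 26.2% of all tested genes, and no member was lowest in replicate 1, beside 8.82%. With TMM scaling, median-of-ratios scaling or the authors' own scaling the number lowest in replicate 2 was 7, since S100a10 then was lowest in replicate 1 (68.7, 74.3 and 87.9 CPM with TMM). Counted with no test, 37.6% of tested genes were lowest in replicate 2 on library totals and 34.4% with TMM scaling. Replicate 3 was the highest for 6 called members, beside 10.5% of all tested genes. S100a4 and S100a13 were highest in replicate 1, beside 31.2%, although S100a4 was highest in replicate 3 with TMM. S100b was highest in replicate 2, beside 14.8%. Leaving out replicate 2 took the CV of S100a8 to 6.31%, of S100a9 to 0.799%, of S100a6 to 4.17%, of S100a11 to 11.8%, of S100a4 to 7.79%, of S100a13 to 9.06% and of S100a1 to 20.0%. That of S100a10 instead rose from 8.12% to 9.47%. S100a13 was then not called (adjusted p = 0.125, exact binomial test), nor was it without replicate 1 (0.0755), and S100a10 was not called without replicate 3 (0.952), where its CV was 0.468%. Without any 1 library S100b had under 30 reads and was not tested, and its CV was 96.2%, 94.1% and 3.84% without replicates 1, 2 and 3. The CV of S100a4 was 21.6% without replicate 3.

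**Figure D5:**
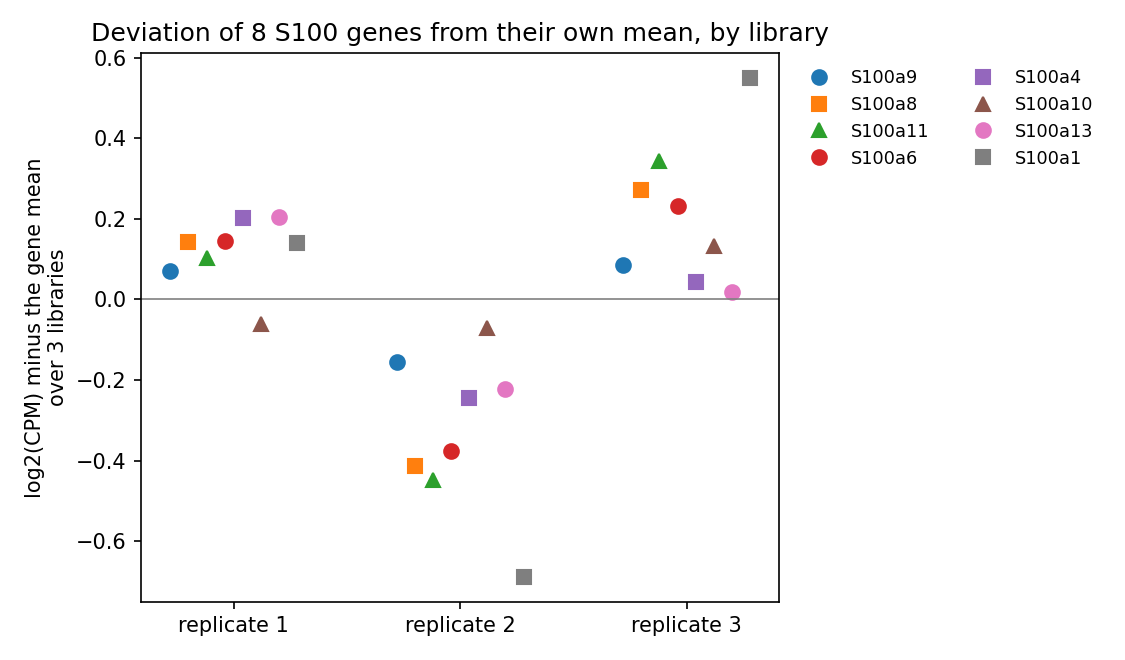
Each point is log2(CPM) of a gene in 1 library minus its own mean over the 3 libraries, for the 8 most abundant members. On library totals all 8 lie below 0 in replicate 2, S100a1 lowest, and S100a10 lies near 0 in replicates 1 and 2.

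Most listed genes of neutrophils, the cells known to hold most calprotectin, were lowest in replicate 2 as well. Of 13 neutrophil granule genes, 13 were called and lowest there, beside 21.4% of all tested genes, and the list summed to 2.17%, 1.67% and 2.11% of reads in replicates 1, 2 and 3. Of 11 late neutrophil genes, 8 were called and lowest in replicate 2 and the other 3 were called and lowest in replicate 3. Beside these stood 21.4% and 26.2% of all tested genes. The late neutrophil list summed to 0.407%, 0.308% and 0.365%. The part of neutrophil content in the S100 values was not tested. S100a8 and S100a9 together exceeded the granule list 3.19-fold, 3.25-fold and 3.44-fold, a mean log2 ratio of 1.72 ± 0.06 (SD, n = 3, above 0 in 3 of 3 libraries, two-sided exact sign-flip permutation p = 0.25). The pair's ratio to the granule list thus spanned 1.08-fold, while the summed level of the family spanned from 5.57% to 7.5% of reads. Split by gene, S100a8 to the list spanned 1.27-fold and was lowest in replicate 2, and S100a9 spanned 1.12-fold and was highest there. Among 12 lists, the granule list gave the narrowest range for S100a8, followed by the T and NK (natural killer) cell list at 1.30-fold. For S100a9 it came at position 4, behind the S100 partner (1.06-fold), monocyte and macrophage (1.07-fold) and T and NK cell (1.11-fold) lists.

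The ratios to single neutrophil genes differed between the subunits. S100a8 kept closest to Lcn2, which encodes the iron-scavenging granule protein lipocalin 2, at 32.01-fold, 30.1-fold and 31.8-fold its reads. S100a9 kept closest to Retnlg, a resistin-like gene of late neutrophils, at 15.7-fold, 16.5-fold and 16.6-fold. Against Ngp, S100a8 stood at 3.79-fold, 3.44-fold and 4.14-fold and S100a9 at 5.03-fold, 5.72-fold and 5.07-fold. Against Lyz2, the lysozyme gene of neutrophils and macrophages, S100a8 spanned 1.67-fold. Lcn2 and Retnlg were picked out from 6 such genes after their values were seen.

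Among 3514 genes with at least 1000 reads, the 5 nearest to S100a8 in pattern were Fcer1g, Alox15, Ifitm3, Tyrobp and Spi1. Likeness was the Euclidean distance of mean-centred log2 CPM over 3 libraries, a description of 3 points. Fcer1g, the common γ chain of Fc receptors, had 268, 184 and 293 CPM in replicates 1, 2 and 3 (distance 0.00696). The lipoxygenase gene Alox15 had 41.2, 27.6 and 44.7 CPM, Ifitm3, an antiviral membrane protein gene, 402, 273 and 447 CPM, and the adaptor gene Tyrobp 283, 192 and 302 CPM. Spi1, which encodes the myeloid transcription factor PU.1, came next with 233, 162 and 252 CPM. S100a6 came at position 11 and S100a11 at position 25 in this order, while S100a9 came at position 431. The 5 genes nearest to S100a9 were Snrpg and Rpl36, which encode a splicing and a ribosomal protein, Svil, Epsti1 and Hist1h2af, none of them a granule gene. With a minimum of 300 reads in place of 1000, 4 of the 5 nearest genes were shared for each subunit, and with TMM scaling all 5 were.

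The receptors through which released calprotectin is sensed were far less abundant than the ligands. Tlr4 had 6.00, 4.94 and 5.80 CPM in replicates 1, 2 and 3, its co-receptor gene Ly96 1.53, 2.96 and 2.52 CPM, and Ager, the receptor for advanced glycation end products, 6.54, 5.68 and 6.35 CPM. The adaptor gene Myd88 stood at 51.1 ± 0.554 CPM (SD, n = 3) and Bsg, which encodes the S100a9 receptor basigin, at 84.4 ± 9.98 CPM. Of the 7 genes on this list, 3 were called, beside 56.5% of all tested genes: Bsg and Cd36 were lowest in replicate 1 and Cd14 in replicate 3, at 23.3, 27.5 and 18.8 CPM.

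Most listed partners of the other members were measured at levels between those of the abundant and the scarce S100 genes. Fgf1, the fibroblast growth factor gene tied to S100a13, was as scarce as S100b, at 1.75, 1.23 and 0.657 CPM in replicates 1, 2 and 3. Myh9, the myosin heavy chain bound by S100a4, had 749, 598 and 732 CPM, and Anxa2, the partner of S100a10, 388, 279 and 327 CPM. Anxa2 exceeded S100a10 in each library, with S100a10 at 0.189, 0.261 and 0.256 of its reads. Anxa1 had 189, 145 and 157 CPM, and S100a11 stood 4.97-fold, 4.42-fold and 7.04-fold above it. Cacybp, the S100a6 partner, had 68.6 ± 0.973 CPM (SD, n = 3) and was not called (adjusted p = 1, exact binomial test). Of the 12 partner genes, 6 were called, and 4 of these were lowest in replicate 2, beside 56.5% and 21.4% of all tested genes. The 9 other EF-hand genes, among them the plastin gene Lcp1 at 615 ± 122 CPM (SD, n = 3), were all called. Beside this stood 56.5% of all tested genes and 76.2% of those with at least 1000 reads, a number that not all 9 reached. Of these 9, 6 were lowest in replicate 2 and 3 in replicate 3, beside 21.4% and 26.2% of all tested genes.

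Factors known to act on myeloid genes were measured next. Of these 9, 7 were called, beside 56.5% of all tested genes and 76.2% of those with at least 1000 reads. Among the 7, 2 were lowest in replicate 1, 3 in replicate 2 and 2 in replicate 3, beside 8.82%, 21.4% and 26.2% of all tested genes. Spi1 was named above. Cebpb had 58.0, 51.6 and 75.6 CPM and Cebpe, required for late granulocyte maturation, had 72.6, 87.2 and 90.3 CPM, lowest in replicate 1. Klf4, a monocyte factor, was highest in replicate 2, at 169, 286 and 184 CPM. Their summed level was 0.116%, 0.116% and 0.115% of reads.

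S100a1 and S100a13, with divergent starts 42 bases apart in GENCODE, did not keep a fixed ratio. RefSeq places the S100a1 start further from S100a13, just below 90514331. The stretch between the GENCODE starts is shown because both genes are read outward from it.
S100a1 to S100a13, chr3:90514393-90514434, plus strand: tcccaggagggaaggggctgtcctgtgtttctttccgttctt
S100a13 exceeded S100a1 by 1.95-fold, 2.58-fold and 1.29-fold in replicates 1, 2 and 3, with counting intervals of 1.66 to 2.29, 2.08 to 3.21 and 1.11 to 1.5. Replicate 3 lay outside the intervals of both others, while those of replicates 1 and 2 overlapped. Their 3′ ends, where this kit primes, are 13547 bases apart. Skeletal muscle markers, relevant to S100a1, summed to 9.71, 9.99 and 8.54 CPM, with Ckm at 0, 2 and 6 reads and Acta1 at 12, 8 and 6 reads. Myh4 was at 0 in all 3 libraries. Its 2 tested genes, Atp2a1 and Tnnt3, had adjusted p of 0.546 and 1 (exact binomial test), and the part of muscle RNA in the S100a1 values was not tested.

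S100b, the scarcest tested member, was set beside markers of cells known to make it. The glial marker Sox10 had 0 reads in each library, and Gfap had 30, 33 and 58 reads in replicates 1, 2 and 3. Adipocyte markers summed to 31.3, 52.1 and 25.5 CPM in replicates 1, 2 and 3, with Fabp4 at 13.5, 22.7 and 5.03 CPM and Plin1 at 0 in each. The sum was lowest in replicate 3, as S100b was, but Adipoq, the most abundant of these markers, was lowest in replicate 1, at 16.7, 24.4 and 19.7 CPM. Their part in the S100b values was not tested. Keratinocyte markers, relevant to S100a3, summed to 1.53, 2.84 and 2.08 CPM, with Krt1 at 0 in each library and Krt14 at 0, 7 and 0 reads.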

How the data were processed

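RNA from 500 ng of total RNA per sample was made into QuantSeq 3′ tag libraries, per the labels' protocols. The submitters' processing notes name Bowtie2, bedtools and mm10. For the aligner version, annotation, use of strand and normalization, the entry is: not given in the sources used here. The authors deposited 1 value per gene on a log2 scale, which proved to be log2(x + 1), with x in each library in whole steps of a fixed size, the worth of 1 read: 100% of values came out whole within 1e-06. Reads were recovered from it, since the planned tests needed counts, and CPM was computed on recovered reads. No molecular identifiers are named, so intervals treat reads as molecules and cover counting error only.

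Each library was tested against the others by a two-sided exact binomial test of each gene with at least 30 reads, the smallest p multiplied by 3, with Benjamini-Hochberg adjustment over all genes at 0.05. Ratios were taken within each library and tested by sign flips. Trimmed-mean (TMM, trimming 30% of ratios and 5% of intensities) and median-of-ratios scaling were computed in Python 3.11.15 with numpy 2.4.6, pandas 2.3.3 and scipy 1.17.1. On simulated counts, with 1 of 3 libraries changed, the test called 42% of 50 genes changed 1.2-fold, 100% of those changed 1.5-fold, and 7 of 11608 unchanged genes. The changed genes were drawn from those with at least 300 reads, and the simulated counts held counting noise only. Power for genes with fewer reads, among them S100b, was not measured. Positions come from GENCODE on GRCm38. Alternatives were other scalings, read minimums of 10 and 1, a chi-square test and leaving out each library.

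The members and gene lists were chosen with earlier results of these data known. Genes were named if they were members, other S100 genes with reads, the 2 most abundant of each list, receptors, partners, myeloid factors, overlapping or neighbouring entries, or the 5 nearest in pattern to S100a8 or S100a9. Markers of a cell type at or near 0 were named beside these, as were Lcn2, Retnlg, Lyz2 and Rn45s. Values of some listed genes are not reported here.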

Additional observations from a re-analysis of the deposited data

How the results depend on the processing

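No alternative reversed the sign of a ratio between genes. Most could not have done so, since scaling cannot move a ratio within a library. Each ratio also had the same sign in all 3 libraries, so leaving out 1 library could not reverse its mean. The median CV of the members fell below that of all tested genes without replicate 2 (9.06% against 14.4%), and TMM scaling moved the lowest library of S100a10 and the highest of S100a4. The summed level of the family, 6.74% of reads, was 9.98% when Rn45s and the globins were left out of the totals. On those totals the levels of 8 single members also moved by more than their spread, S100a9 from 37811 to 56054 CPM on average. Those of S100b and S100a3 stayed within their spread. The log2 ratio of S100a8 plus S100a9 to the other members was 9.08 in place of 5.06 with medians of log2(CPM + 1), and the ratio to the neutrophil granule list was 2.37 in place of 1.72 without Ngp. Leaving out 1 library at a time, 7 members were called each time, out of 8 that could be tested, beside 34.8%, 39.0% and 38.5% of all genes tested without replicates 1, 2 and 3. The summed level then ran from 6.36% to 7.33%, the ratio to the other members from 5.0 to 5.11, the S100a9 to S100a8 ratio from 0.35 to 0.57 and the ratio to the granule list from 1.69 to 1.74. S100a13 was also not called on totals without Rn45s and globins (adjusted p = 0.0568, exact binomial test). Of the other values, 32 on the main comparisons and 192 on single genes were taken as unchanged. Adjusted p-values, levels and ratios had to stay on the same side of the threshold or within the spread between libraries. Counts of called members and of shared nearest genes had a looser limit, under which 7 called members in place of 9 were taken as unchanged. No paired analysis was possible because only 1 group was present. With 3 libraries the exact sign-flip permutation test could not go below p = 0.25. S100b and S100a3 had only 32 and 5 reads in total, and the smallest difference such counts could show was not measured.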

Other observations

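S100a1 had the widest spread of the abundant and mid-level members, and like it the summed reads of a list of eosinophil, basophil and mast cell genes were lowest in replicate 2 and highest in replicate 3. The 7 genes made up 0.181%, 0.0895% and 0.228% of the library in replicates 1, 2 and 3. Of them, 6 were called and lowest in replicate 2, beside 21.4% of all tested genes. Prg2, which encodes eosinophil major basic protein, had 1219, 586 and 1560 CPM, and the eosinophil genes Epx and Ear1 were also highest in replicate 3. Mcpt8, Prss34 and Cpa3, genes of basophils and mast cells, were highest in replicate 1, at 63.3, 38.1 and 48.9 CPM for Mcpt8, and Fcer1a was not called. S100a1 stood at 1.43%, 1.63% and 1.51% of the list's reads, a 1.14-fold range. This was the narrowest range among 12 lists and was picked out after the values were seen, over 3 libraries, so it is a description only. Which cells carried the S100a1 reads was not tested.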
